A study of Homo sapiens with 27 samples.

Results

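The control cultures of the 92.1 uveal melanoma cell line were compared after 7 days in DMSO with the day 0 cultures, to describe how expression of protein-coding genes moved over 1 week without inhibitor. The comparison used 6 of the 27 libraries of the study, 3 labelled DMSO day 0 and 3 labelled DMSO day 7. It was chosen with earlier results of these data known, among them that both groups have close replicates. The distances between replicates given below are thus no independent check. The other 21 came from DMSO at other times and from cells given FAKi, 100 nM of the focal adhesion kinase inhibitor VS-4718. 92.1 is an established line from a tumour of the eye that carries an activating *GNAQ* mutation, and it was grown in RPMI medium with 10% serum. DMSO is the solvent of the inhibitor, and it was renewed every 72 h while the cells were passaged. All 6 libraries thus shared the line, its mutation and the vehicle label, and differed in the time in culture. Time, passage, renewals of the solvent and the harvest, which was separate for each day, cannot be told apart in this design. In addition, 1 line stands for the disease. Triplicate plates and 3 repeats of the experiment are both described in the methods, and which of these the replicate numbers count is not stated, so the spread between libraries may be partly technical.

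Uveal melanoma arises from the melanocytes of the eye. Melanocytes make pigment in melanosomes, where the enzymes *TYR*, *TYRP1* and *DCT* convert tyrosine to melanin, and the transcription factor *MITF* drives most of these genes together with *SOX10*. In uveal melanoma a mutant Gq protein signals through phospholipase C to the ERK pathway, and through *TRIO* and focal adhesion kinase, the product of *PTK2*, to the YAP coactivator. The transcriptome of cultured cells is known to vary with density, nutrients and contact.

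Total counts were between 12161994 and 18344770 at day 0 and between 19944223 and 31262413 at day 7, so every day 7 library was deeper. Mitochondrial genes took 17.0% to 18.8% of counts at day 0 and 17.1% to 19.3% at day 7. Of 10 melanocyte markers, 9 exceeded 1 CPM in at least 1 library (CPM is the count relative to the TMM-scaled library total), and *PRAME* did not exceed 0.252 CPM. Above 1 CPM were also 2 of 5 fibroblast, 0 of 6 endothelial, 1 of 6 leukocyte, 1 of 5 epithelial and 3 of 4 pigment epithelial markers. Many defining markers of other cells were at or near 0: *KRT5*, *KRT19*, *CD3E*, *TEK* and *RPE65* had no count in the 6 libraries, and *DCN*, *THY1*, *PTPRC* and *EPCAM* had 2 counts or fewer each. The exceptions at the highest level were *BEST1*, a chloride channel of the retinal pigment epithelium, and *CD68*, a lysosomal protein of macrophages. *BEST1* was at 1158 to 1435 CPM and *CD68* at 88.97 to 109 CPM, and neither passed the test. Their levels are less certain, since *CD68* shares 94.9% of its exon bases with other genes on the same strand and *BEST1* 29.7% with *FTH1* on the opposite strand. Longer marker lists used further below add epithelial *KRT18* (18.9 to 24.3 CPM) and *KRT8* (3.55 to 4.59 CPM). They also add fibroblast *COL1A1* (4.18 to 6.29 CPM), and none of these passed the test. *KRT8* shares 83.4% of its exon bases with *KRT18* on the opposite strand. The 3 day 0 libraries were 0.270 to 0.283 apart (root mean square log2 difference over 16779 genes), the day 7 libraries 0.219 to 0.267, and libraries of different days 0.301 to 0.350. The column names also carry an NGS tag equal to the replicate number, and each day holds 1 library of each tag.

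After 1 week most genes stood near their day 0 level, and the clearest differences included falls of the adhesion molecule *NRCAM* and the fatty acid receptor *CD36* and rises of the pigment enzyme *TYR* and the semaphorin receptor *PLXNC1*. Of 14241 protein-coding genes tested, 113 (0.793%) were called, meaning a Benjamini-Hochberg adjusted p of at most 0.05 over all genes tested in edgeR's quasi-likelihood test and a log2 fold change beyond 1 in either direction. Calls were more often lower than higher at day 7, with 87 lower (0.611%) and 26 higher (0.183%). Over genes of every kind, 153 of 21900 (0.699%) were called. By the adjusted p alone 911 protein-coding genes passed (6.4%), of which 440 were higher (3.09%) and 471 lower (3.31%), and "rose" and "fell" are used below for genes that passed it. Their directions were thus close to even until the fold threshold was added. Every count of list members below is to be read beside these shares. The 3 day 7 values lay all above or all below the 3 day 0 values in 3488 genes (24.5%), and in 112 of the 113 called genes, *UNC5D* being the exception. The median log2 fold change of the protein-coding genes was 0.007 and the median size 0.12. Among called genes with at least 5 CPM in their higher group, 13 were higher and 24 lower, while of the 15 called under 1 CPM in both groups 14 were lower. Without DMSO day 0 replicate 2, the shallowest library, 57 were called lower and 22 higher. With all 27 libraries in 1 fit 29 were called (11 higher, 18 lower), and with the 15 DMSO libraries 20 (9 higher, 11 lower). Of the genes named below, *CCN2*, *SEMA3A*, *L1CAM*, *POSTN*, *SPP1*, *VCAN*, *CDH2*, *CYSLTR2*, *MUC5B* and *MUC7* were called in neither, and *CSGALNACT1*, *SEMA6D*, *IL2RB*, *NT5E* and *PAG1* were not called with the 15.

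**Figure D1:**
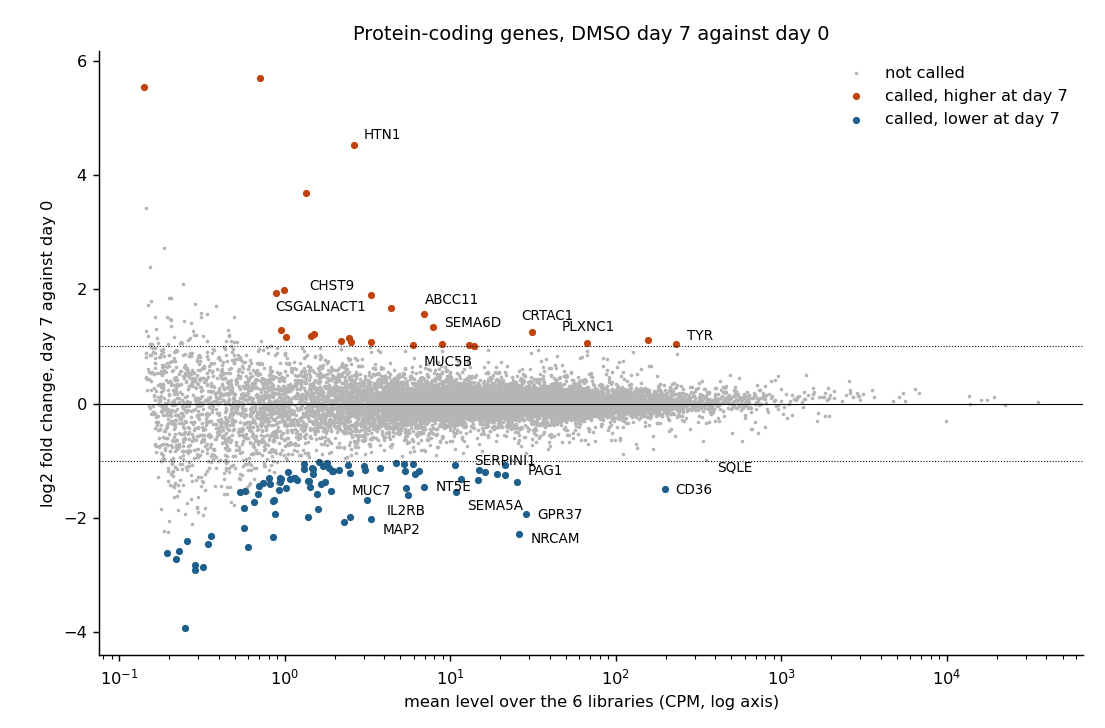
Log2 fold change, DMSO day 7 against DMSO day 0, of the 14241 protein-coding genes tested (y axis) against their mean level over the 6 libraries in CPM (x axis, log scale). Each point is a gene, orange for the 26 called higher and blue for the 87 called lower, dotted lines mark a log2 fold change of 1 in either direction, and the labelled genes are named in the text; most genes lie close to 0, and *TYR* and *CD36* are among the called genes above 100 CPM.

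Pigment genes were mostly higher after 1 week. Of 16 tested 8 rose and 1 fell, beside 3.09% and 3.31% of all protein-coding genes, and their median log2 fold change was 0.32 against 0.007. *TYR*, the rate-limiting enzyme of melanin synthesis (ENSG00000077498.9, hg38 chromosome 11 from 89177875 to 89295759, plus strand), was the 1 member called. The promoter windows of *TYR*, *SLC24A5* and *TYRP1*, from RefSeq (GRCh38.p14), are shown because they hold an M-box core, TCATGTG, the E-box variant that *MITF* is known to bind in pigment genes, and because *TYR* and *SLC24A5* rose while *TYRP1* did not pass the test. They were chosen after the values were seen. Each window holds 250 bases before the start site and 50 after, 5′ to 3′ on the gene's strand, with the motif in capitals, and in *SLC24A5* it reads on the opposite strand, CACATGA.
TYR, chr11:89177625-89177924, plus strand, motif from base -105: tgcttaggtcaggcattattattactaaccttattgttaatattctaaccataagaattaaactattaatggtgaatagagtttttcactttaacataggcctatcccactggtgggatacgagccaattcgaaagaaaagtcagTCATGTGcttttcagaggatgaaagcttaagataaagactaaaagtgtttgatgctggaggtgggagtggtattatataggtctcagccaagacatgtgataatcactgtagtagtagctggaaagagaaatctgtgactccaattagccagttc
SLC24A5, chr15:48120740-48121039, plus strand, motif from base -15: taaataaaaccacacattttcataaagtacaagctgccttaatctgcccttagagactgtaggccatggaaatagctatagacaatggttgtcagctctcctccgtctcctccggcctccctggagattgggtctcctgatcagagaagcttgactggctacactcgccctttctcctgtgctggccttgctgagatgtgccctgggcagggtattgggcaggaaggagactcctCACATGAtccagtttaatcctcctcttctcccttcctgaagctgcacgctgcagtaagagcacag
TYRP1, chr9:12693135-12693434, plus strand, motif from base -145: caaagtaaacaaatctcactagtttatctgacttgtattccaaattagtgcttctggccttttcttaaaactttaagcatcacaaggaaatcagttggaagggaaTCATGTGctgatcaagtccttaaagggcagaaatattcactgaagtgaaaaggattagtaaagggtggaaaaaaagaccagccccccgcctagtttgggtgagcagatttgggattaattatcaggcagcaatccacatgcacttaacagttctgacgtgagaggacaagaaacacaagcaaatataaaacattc

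The motif was searched on both strands, and 2.92% of the 35116 windows and 3.59% of the 27305 genes in the table hold it. Of 13 pigment genes with a window 7 held it, 3 of the 8 that passed the test (*TYR*, *SLC24A5* and *GPR143*) and 4 of the 5 that did not (*TYRP1*, *DCT*, *GPNMB* and *CD63*). These 8 are not the 8 that rose: they include *MC1R*, which fell and lacks the motif. *SLC45A2* rose but has no window. A match in these letters is a description of the window and no binding site was measured.

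*TYR* was at 145, 150 and 159 CPM at day 0 and at 322, 300.1 and 318 CPM at day 7, with no overlap. The log2 fold change was 1.05 ± 0.07 (SE, n = 3 and 3 libraries here and below), with an edgeR adjusted p of 4.97e-12. The transporters of the melanosome rose with it. *OCA2*, which sets melanosome pH, went from 44.2, 47.6 and 48.3 CPM to 81.1, 88.4 and 94.99 CPM. *SLC45A2*, a sugar and proton transporter, went from 45.8, 51.3 and 46.9 CPM to 94.7, 78.2 and 84.7 CPM. *SLC24A5*, a potassium-dependent sodium and calcium exchanger, went from 84.2, 72.2 and 78.2 CPM to 145, 124 and 121 CPM. In each of these the lowest day 7 library was above the highest day 0 library, and the log2 fold changes were 0.92, 0.84 and 0.73. *TRPM1*, a cation channel of melanocytes, rose by 0.93 on the log2 scale. *RAB27A* (0.56) and *MYO5A* (0.38), which carry melanosomes to the cell edge, and *GPR143* (0.26), a melanosomal receptor, rose by less. *MC1R*, the receptor of melanocyte stimulating hormone, was the 1 member that fell, from 12.2, 10.4 and 13.5 CPM to 8.06, 8.22 and 9.59 CPM (log2 fold change -0.49, edgeR adjusted p = 0.0140).

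Other pigment genes did not pass the test. *PMEL*, which forms the fibrils of the melanosome, was at 3194, 3210 and 3396 CPM at day 0 and at 3598, 3872 and 4017 CPM at day 7, higher in every library but with an edgeR adjusted p of 0.0836. *TYRP1* was between 5345 and 5708 CPM at day 0 and between 5431 and 5894 CPM at day 7. The factors above these genes were close to level on average. *MITF* was at 226, 193 and 209.6 CPM at day 0 and at 201, 219 and 210.5 CPM at day 7, with a log2 fold change of 0.003 and a 95% interval from -0.15 to 0.15. *SOX10* had a log2 fold change of 0.10, with an interval from -0.05 to 0.25. *PAX3*, a factor of melanocyte precursors that acts upstream of *MITF*, was the 1 of 8 melanocyte transcription factors that passed. It fell from 120, 120 and 123 CPM to 74.3, 78.9 and 79.03 CPM, a log2 fold change of -0.64 ± 0.07 (edgeR adjusted p = 9.8e-08).

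**Figure D2:**
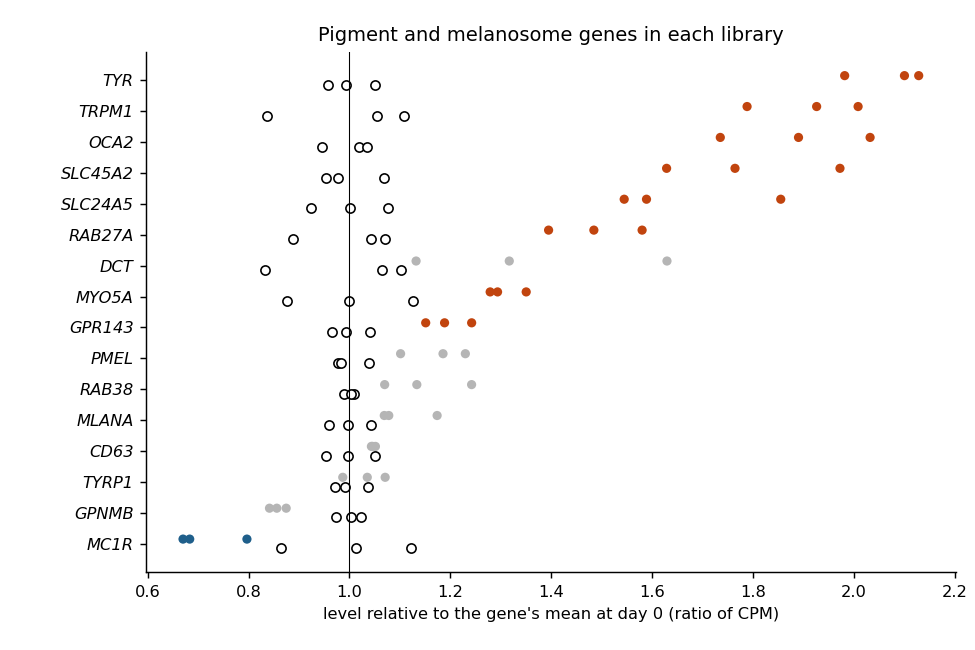
Level of the 16 pigment and melanosome genes in each library, relative to the gene's mean at day 0 (x axis, a ratio of CPM); open circles are the 3 day 0 libraries and filled circles the 3 day 7 libraries, orange for the 8 genes that rose, blue for *MC1R*, which fell, and grey for the 7 that did not pass. *TYR* lies at about 2 times its day 0 mean in every day 7 library, while *TYRP1* overlaps its day 0 values.

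The gene with the smallest p was *NRCAM*, a neuronal adhesion molecule of the immunoglobulin superfamily (ENSG00000091129.22, hg38 chromosome 7 from 108147626 to 108456397, minus strand). It was at 46.2, 40.3 and 43.6 CPM at day 0 and at 8.32, 9.37 and 9.21 CPM at day 7. All 3 day 7 libraries were thus far below the lowest day 0 library, with a log2 fold change of -2.28 ± 0.09 (edgeR adjusted p = 1.88e-17). *GPR37*, an orphan receptor related to the endothelin receptors, fell from 44.7, 49.6 and 42.5 CPM to 11.9, 10.4 and 13.2 CPM (log2 fold change -1.93). Of its exon bases 21.4% also belong to another gene model on the same strand, so its level is less certain. *CD36*, the receptor that takes up long-chain fatty acids, fell from 316, 287 and 273 CPM to 107, 103 and 101 CPM (log2 fold change -1.49 ± 0.07). These 3 genes lie on chromosome 7 but far apart. *SEMA3C*, also called lower and described below, lies near *CD36* (from 80742538 to 80919051 and from 80638642 to 80679274). Whether their falls are linked was not tested. *NRCAM*, *GPR37* and *CD36* each separated the days without overlap, which the rule for naming by size required.

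Further genes named for the size of their change also fell. Genes were named by size only where the days did not overlap, so that separation is no added evidence. *MAP2*, which binds the microtubules of dendrites, fell from 5.23, 4.51 and 6.18 CPM to 0.617, 2.19 and 1.31 CPM. *SERPINI1*, or neuroserpin, an inhibitor of tissue plasminogen activator, fell from 22.6, 22.5 and 18.3 CPM to 9.44, 7.72 and 7.87 CPM. *MUC7*, a salivary mucin, fell from 7.65, 6.89 and 9.25 CPM to 2.22, 3.64 and 2.87 CPM. Their log2 fold changes were -2.03, -1.33 and -1.48, with no overlap between days. *IL2RB*, a subunit of the interleukin 2 and 15 receptors, fell from 8.43 CPM on average to 2.71 CPM (-1.61). *PAG1*, a membrane adaptor that holds the kinase that restrains SRC, was at 34.4, 29.2 and 45.5 CPM at day 0 and at 11.99, 15.1 and 15.2 CPM at day 7 (-1.38). *PAG1* varied more at day 0, and its lowest day 0 library was still above every day 7 library.

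*HTN1*, which encodes the salivary peptide histatin 1 (ENSG00000126550.10, hg38 chromosome 4 from 70052882 to 70058845, plus strand), had the largest rise among genes that reached 5 CPM. It was close to absent at day 0, with 5, 3 and 2 counts, and had 193, 79 and 131 counts at day 7. This was 0.311, 0.246 and 0.108 CPM against 7.01, 3.94 and 4.17 CPM. The pooled ratio was 23.9, with a 95% interval from 12.9 to 50.2 that covers counting error only. No other called gene of that level rose by more than 2 log2 units.

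The other genes named for the size of their rise follow. *CHST9*, a sulfotransferase, went from 0.871, 1.89 and 1.51 CPM to 4.14, 5.53 and 5.99 CPM, and *CSGALNACT1*, which starts chondroitin chains, from 2.68, 1.48 and 1.99 CPM to 7.63, 6.43 and 5.96 CPM. *ABCC11*, an efflux transporter, went from 3.92, 2.87 and 3.71 CPM to 10.9, 9.87 and 10.6 CPM. All 3 began at low levels, with log2 fold changes of 1.90, 1.68 and 1.56, and did not overlap between days, as the naming rule required. *CRTAC1*, a calcium-binding protein of the matrix, was tighter, at 18.5, 19.8 and 17.4 CPM and then 43.0, 43.2 and 45.2 CPM (1.25 ± 0.09). *MUC5B*, a gel-forming mucin, rose from 4.67, 5.58 and 7.05 CPM to 10.9, 13.4 and 11.7 CPM (1.04), and it went under the fold threshold without DMSO day 0 replicate 1 (0.89) or without DMSO day 7 replicate 2 (0.96).

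**Figure D3:**
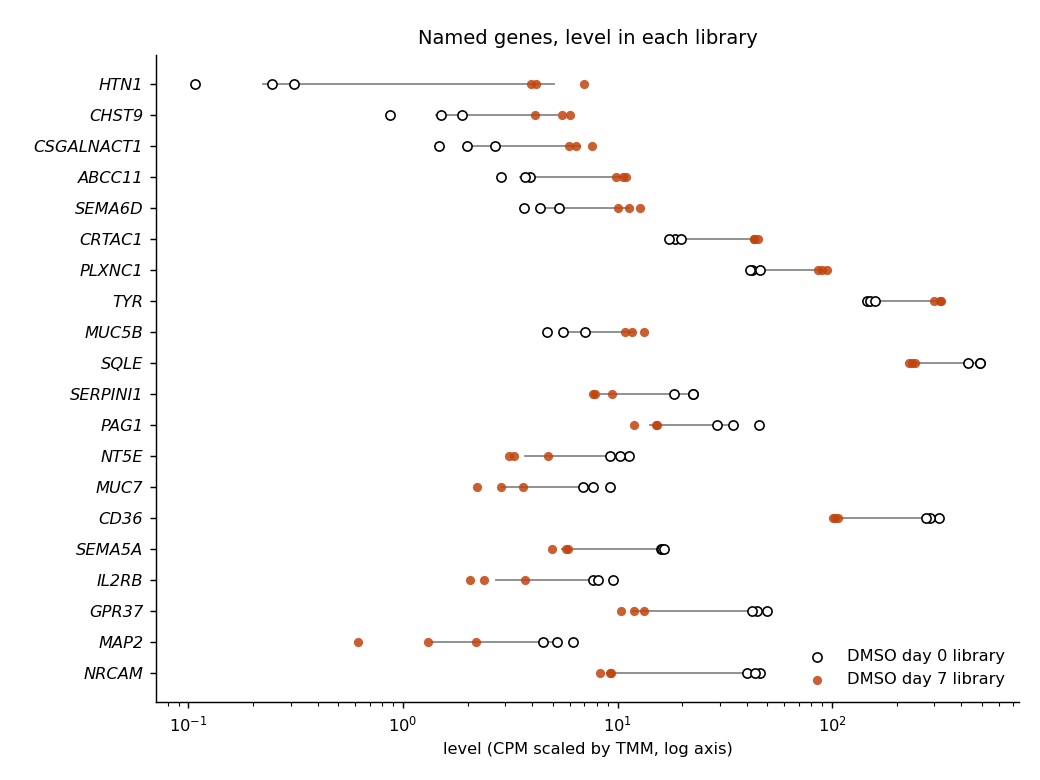
Level in each library (x axis, CPM scaled by TMM, log scale) of genes named by size or by p; open circles are the 3 day 0 libraries, filled circles the 3 day 7 libraries, and the line joins the group means. The order is by log2 fold change from *HTN1* (4.53) to *NRCAM* (-2.28). The days do not overlap in any gene drawn, which was a condition for the genes named by size.

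Semaphorins are guidance cues and plexins their receptors, and both act on adhesion and the cytoskeleton. Of 26 tested, 2 were called higher and 3 lower, and 4 rose and 4 fell by the adjusted p, beside 0.183% and 0.611% of all protein-coding genes called and 3.09% and 3.31% passing. Of the 26 log2 fold changes 6 were above 0 and 20 below, with a median of -0.14. *PLXNC1*, the plexin that receives *SEMA7A* (ENSG00000136040.9, hg38 chromosome 12 from 94148577 to 94307675, plus strand), rose from 42.1, 41.6 and 46.2 CPM to 85.9, 89.95 and 94.99 CPM (1.06 ± 0.08, edgeR adjusted p = 1.81e-11). *SEMA6D*, a transmembrane ligand of *PLXNA1*, rose from 3.67, 4.35 and 5.32 CPM to 10.0, 11.3 and 12.7 CPM (1.34 ± 0.15). The related ligand *SEMA6A* (0.50) and the receptor *PLXNA1* (0.33) rose by less. On the other side *SEMA5A*, also a transmembrane ligand, fell from 15.99, 16.1 and 16.5 CPM to 4.98, 5.73 and 5.86 CPM (-1.55 ± 0.12). The secreted class 3 ligands that passed all fell: *SEMA3A* by 1.10, *SEMA3C* by 1.08 and *SEMA3F* by 0.72 on the log2 scale. *SEMA3A* was at 4.48, 4.10 and 3.76 CPM and then at 1.67, 2.04 and 2.04 CPM, and *SEMA3C* went from 14.5 CPM on average to 6.84 CPM.

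Genes of cell contact fell where they passed. In the list of 12 cadherins and contact molecules 4 fell, 2 of them called, and none rose, beside 3.31% of all protein-coding genes that fell and 0.611% called lower. *L1CAM*, a relative of *NRCAM*, went from 15.4, 16.7 and 17.4 CPM to 6.61, 7.43 and 5.89 CPM (-1.32 ± 0.12, edgeR adjusted p = 1.9e-09), and the adjusted p was 0.103 with 27 libraries and 0.0844 with 15 in the fit. *CDH19*, a cadherin of the neural crest, fell by 0.87 and *MCAM*, the melanoma cell adhesion molecule, by 0.56 on the log2 scale, from 202 CPM on average to 136 CPM. *CDH2*, or N-cadherin, had 52 counts at day 0 and 36 at day 7 in all, a log2 fold change of -1.30 with an edgeR adjusted p of 0.0421. That call is weak: the adjusted p was 0.0842 in DESeq2, 0.111 without DMSO day 0 replicate 1, 0.211 without DMSO day 0 replicate 2, 0.123 without DMSO day 7 replicate 2 and 0.114 without DMSO day 7 replicate 3.

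Genes of the basement membrane and its receptors were lower by smaller amounts. Of 16 matrix glycoproteins 6 fell and 3 rose, where 3.31% and 3.09% of all protein-coding genes did. *LAMB1*, a laminin chain, was at 166, 161 and 165 CPM at day 0 and at 101, 101 and 99.8 CPM at day 7 (-0.70 ± 0.07, edgeR adjusted p = 1.09e-08). Fibronectin (*FN1*, -0.57) and the laminin chains *LAMA4* (-0.46) and *LAMA1* (-0.38) fell, as did the protease inhibitor *TIMP2* (-0.26), while the membrane protease *MMP14* rose (0.29). Of 13 collagen chains *COL4A1* (-0.31) and *COL4A5* (-0.34) of type IV collagen fell and none rose. Of 18 integrin and focal adhesion genes 3 fell and none rose, namely the integrins *ITGB1* (-0.31) and *ITGA1* (-0.71) and the actin crosslinker *FLNA* (-0.30), and 16 of the 18 log2 fold changes were below 0. The target of the inhibitor used elsewhere in the study, *PTK2*, was at 165, 154 and 159 CPM at day 0 and at 156, 151 and 148 CPM at day 7. Its log2 fold change was -0.07, with a 95% interval from -0.21 to 0.07 (edgeR adjusted p = 0.675).

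The 3 matrix genes with the largest differences were all near the detection limit. *POSTN*, or periostin, had 1 count in all at day 0 and 13, 35 and 63 counts at day 7, a pooled ratio of 65.9 with a 95% counting interval from 11.6 to 2620. *SPP1*, or osteopontin, had 4, 0 and 5 counts and then 64, 53 and 82, a ratio of 13.1 with an interval from 6.77 to 29.1. *VCAN*, the proteoglycan versican, moved the other way, from 8, 5 and 15 counts to 3, 1 and 2. *VCAN* had an edgeR adjusted p of 0.005, which was 0.159 when all libraries were thinned to the smallest total, and DESeq2 gave none. *POSTN* and *SPP1* stayed below 3 CPM in every library.

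Targets of YAP and immediate early genes were lower where they passed. Of 20 YAP and TEAD targets 4 fell and none rose, beside 3.31% and 3.09% of all protein-coding genes, and 16 of the 20 log2 fold changes were below 0, with a median of -0.16. *CCN2*, a matricellular growth factor, fell from 2.61, 1.97 and 2.42 CPM to 0.617, 1.05 and 0.733 CPM (-1.59 ± 0.28), a call that was lost with 27 libraries (edgeR adjusted p = 0.329) or 15 libraries (0.661) in the fit. *NT5E*, the ecto-nucleotidase CD73, fell from 11.3, 9.26 and 10.2 CPM to 4.72, 3.29 and 3.12 CPM (-1.47 ± 0.16). *CCN1* (-0.84) and the LIM protein *AJUBA* (-0.56) also fell. Of 18 immediate early genes *JUN*, *ATF3* and *KLF2* fell and none rose. *JUN*, a subunit of the AP-1 transcription factor, was at 31.9, 29.2 and 29.1 CPM at day 0 and at 12.7, 11.4 and 13.9 CPM at day 7 (-1.24 ± 0.10, edgeR adjusted p = 1.07e-10), and *MYC* was close to level (0.02).

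In the driver pathway a few genes fell and none rose, where 3.31% and 3.09% of all protein-coding genes did. Of 16 genes of the uveal melanoma Gq pathway, *PLCB1* (-0.41), a phospholipase C, and *RGS2* (-0.77), which turns Gq off, fell with *CYSLTR2*, the leukotriene receptor above Gq. *GNAQ* was at 43.5, 41.7 and 43.7 CPM at day 0 and at 45.6, 45.2 and 45.7 CPM at day 7, a log2 fold change of 0.08 with a 95% interval from -0.07 to 0.23 (edgeR adjusted p = 0.656). *CYSLTR2* had 22 counts in all at day 0 and 5 at day 7, a ratio of 7.42 with a counting interval from 2.74 to 25.1. Its edgeR adjusted p of 0.0207 became 0.0508 without DMSO day 7 replicate 2 and 0.0748 without DMSO day 7 replicate 3, and DESeq2 gave none. Of 14 ERK feedback genes the inhibitors *DUSP6* (0.46) and *SPRY1* (0.64) rose and *DUSP4* (-0.31) fell. In the list of TGF-beta and BMP genes the BMP-responsive factors *ID1* (0.61), *ID2* (0.37), *ID3* (0.74) and *ID4* (0.56) rose with the decoy receptor *BAMBI* (0.39), and the receptors *TGFBR1* (-0.33) and *TGFBR2* (-0.56) and *LTBP1* (-0.85), which stores TGF-beta in the matrix, fell. *ID3* went from 25.8, 29.0 and 25.2 CPM to 36.2, 47.9 and 49.2 CPM. Of 14 WNT and NOTCH genes 0 passed in edgeR or in DESeq2, and before adjustment 3 were at p under 0.05.

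**Figure D4:**
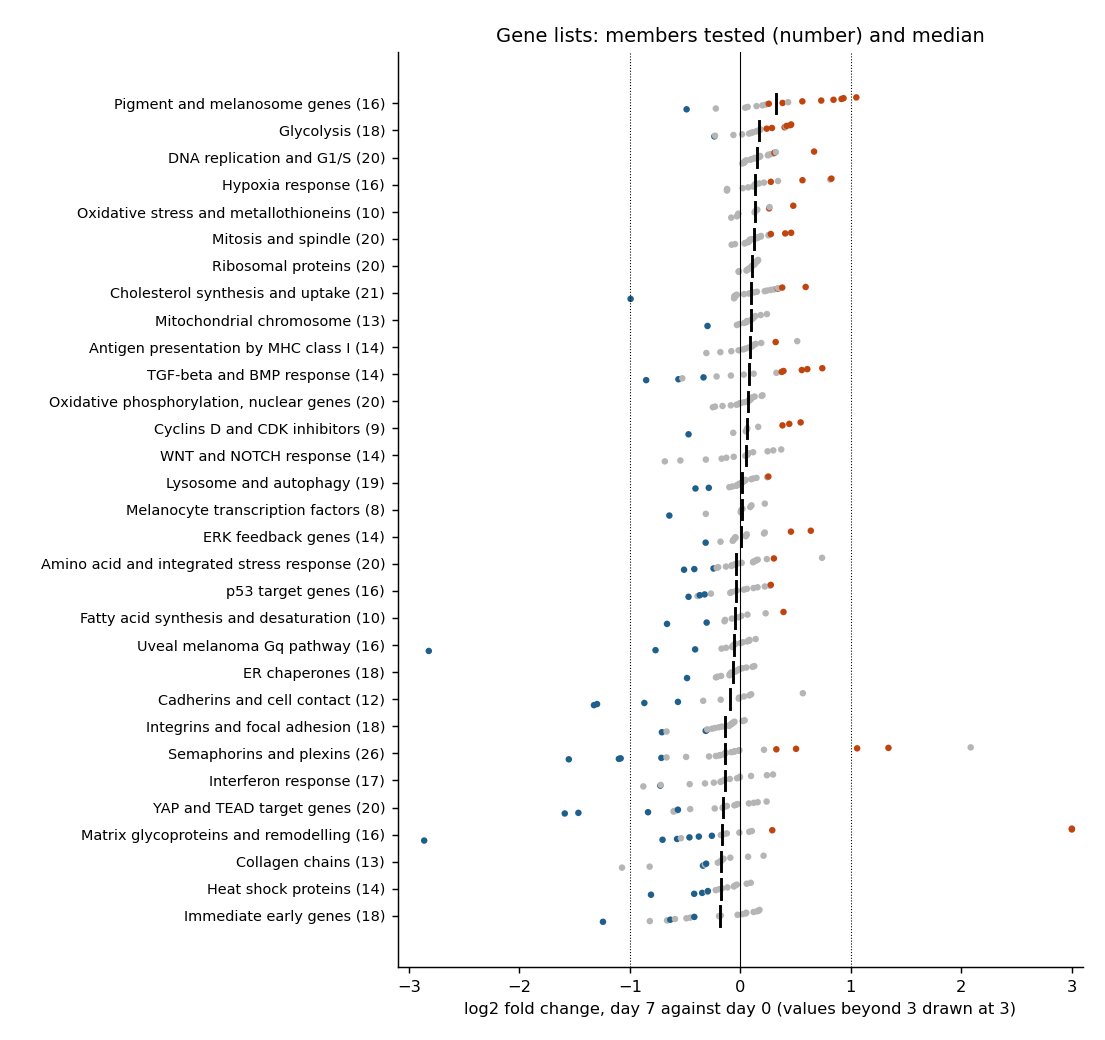
Log2 fold change, DMSO day 7 against DMSO day 0, of each tested member of 31 gene lists (x axis), with the number tested after each name; orange points rose and blue points fell at an adjusted p of at most 0.05, grey points did not pass, black bars are medians, and dotted lines mark 1 in either direction. *POSTN* (5.69) and *SPP1* (3.68) are drawn at 3; the pigment list has the highest median (0.32) and the immediate early list the lowest (-0.19).

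In lipid metabolism the pathway enzymes moved apart. *SQLE*, the squalene epoxidase of cholesterol synthesis, was at 489, 487 and 432 CPM at day 0 and at 244, 235 and 229 CPM at day 7. Its log2 fold change of -0.99 ± 0.07 fell just short of the fold threshold with an edgeR adjusted p of 2.4e-11. *HMGCS1* (0.34), which acts early in the same pathway, and *NSDHL* (0.38), which acts late, rose. *HMGCS1* went from 36.8 CPM on average to 46.8 CPM. Of 10 genes of fatty acid synthesis *SREBF1* (-0.66), the factor that drives them, and the desaturase *SCD* (-0.31) fell and the desaturase *FADS2* (0.39) rose. *SREBF1* went from 389, 397 and 453 CPM to 197, 304 and 281 CPM.

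Some glycolytic and hypoxia genes rose, by moderate amounts, where 3.09% of all protein-coding genes rose and 3.31% fell. Of 18 glycolytic genes 6 rose, namely *ALDOC* (0.46), *LDHA* (0.45), *ALDOA* (0.42), *GAPDH* (0.40), *TPI1* (0.29) and *ENO1* (0.24), and the hexokinase *HK1* fell (-0.24). *ALDOA* shares 89.8% of its exon bases with another gene on the same strand and *GAPDH* 32.8% on the opposite strand. *LDHA*, which makes lactate, was at 39.3, 38.5 and 37.2 CPM at day 0 and at 50.1, 54.3 and 52.9 CPM at day 7. Of 16 hypoxia genes *NDRG1*, *BNIP3* and *P4HA1* rose and none fell. *NDRG1*, a stress-induced gene, went from 47.9, 45.9 and 41.6 CPM to 62.1, 85.9 and 91.4 CPM (0.82 ± 0.10), and *BNIP3*, which marks mitochondria for removal, from 29.8 CPM on average to 43.9 CPM (0.56). *VEGFA* did not pass (0.12). Of 10 oxidative stress genes *NQO1* (0.48), a quinone reductase, and *TXNRD1* (0.26), which reduces thioredoxin, rose, and 22.8% of the exon bases of *NQO1* lie opposite another gene.

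Proliferation genes were a little higher at the median, with few that passed, where 3.09% of all protein-coding genes rose and 3.31% fell. All 20 DNA replication genes had a log2 fold change above 0, with a median of 0.15, and *CDT1* (0.67), which licenses origins, and *MCM2* (0.31), part of the replicative helicase, rose. Of 20 mitosis genes *MKI67* (0.46), *NUSAP1* (0.41) and *KIF23* (0.28) rose, with a median of 0.12. Summed over the list, the mitosis genes overlapped between days, at 944.7 to 1127 CPM at day 0 and 1093 to 1294 CPM at day 7. The replication genes did not, at 700.3 to 715.4 CPM and then 723.7 to 861.3 CPM. *MKI67*, the proliferation marker, was at 72.0, 66.5 and 91.4 CPM at day 0 and at 80.2, 129 and 109 CPM at day 7, so that its ranges overlapped. Of the CDK inhibitors *CDKN2A* (0.44), *CDKN2C* (0.55) and *CDKN1C* (0.38) rose and *CDKN1A*, or p21, fell from 58.0, 57.1 and 58.4 CPM to 37.0, 41.9 and 46.4 CPM (-0.47). Among 16 p53 targets *CDKN1A*, *MDM2* (-0.32), which degrades p53, and the death receptor *TNFRSF10B* (-0.37) fell, and *BBC3* (0.28), a cell death gene, rose.

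Few protein folding genes passed, and those fell, where 3.31% of all protein-coding genes fell and 3.09% rose. Of 14 heat shock genes *CRYAB* (-0.81), *HSPA1B* (-0.42), *HSPH1* (-0.35) and *DNAJA1* (-0.29) fell and none rose, with *HSPA1B* at 84.3, 89.5 and 83.2 CPM and then at 47.1, 78.7 and 66.99 CPM. *HSPA1B* has a near-identical copy in *HSPA1A*, so its counts are uncertain. Of 18 chaperones of the endoplasmic reticulum *EDEM1* alone fell (-0.48), which says little of that list. Of 20 integrated stress response genes *VLDLR* (-0.51), *ATF3* (-0.42) and *ASNS* (-0.24) fell and *SHMT2* (0.30) rose, while *ATF4*, the factor that drives the response, did not pass (0.14).

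Immune and organelle lists had few members that passed. A single member in a list is near the 6.4% of all protein-coding genes that passed. *DDX58*, an RNA sensor, fell (-0.72) among 17 interferon genes, where 0 passed in DESeq2, and *HLA-E* rose (0.32) among 14 class I genes. *MAP1LC3B* (-0.41), a component of autophagosomes, and the protease *CTSB* (-0.29) fell, and the protease *CTSL* rose (0.25), among 19 lysosome genes. Of 13 genes of the mitochondrial chromosome *MT-ND1* fell (-0.30). Of 20 nuclear genes of oxidative phosphorylation and 20 ribosomal protein genes 0 passed in edgeR or in DESeq2, with 5 and 3 at an unadjusted p under 0.05. The marker lists held 8 fibroblast, 6 leukocyte, 7 epithelial and 6 pigment epithelial genes. Of these, 4, 1, 4 and 3 could be tested, and 0 passed in edgeR or in DESeq2 or had an unadjusted p under 0.05.

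The levels of the named genes in the other groups place day 7 within the longer culture, with values scaled over all 27 libraries and given as mean ± SD of 3. *TYR* was at 150 ± 7.12 CPM at day 0, 196 ± 13.8 CPM at day 3, 311 ± 11.7 CPM at day 7, 321 ± 24.7 CPM at day 14 and 251 ± 29.1 CPM at day 21. *PLXNC1* was at 42.9 ± 2.48, 37.5 ± 12.5, 89.5 ± 4.51, 197 ± 15.4 and 36.2 ± 6.23 CPM on those days. *TYR* thus had its day 7 and day 14 means within 1 SD of each other and *PLXNC1* did not, and *PLXNC1* at day 21 was again near day 0. *CD36* was at 289 ± 21.5, 254 ± 49.3, 103 ± 2.71, 106 ± 4.83 and 228 ± 34.2 CPM. *NRCAM* was at 42.9 ± 2.94, 31.1 ± 8.92, 8.88 ± 0.561, 8.58 ± 0.817 and 18.9 ± 6.39 CPM. In both the lowest means were at days 7 and 14, which did not differ beyond their spread. *JUN* was at 29.8 ± 1.59 CPM at day 0, 30.9 ± 1.38 CPM at day 3, 12.5 ± 1.24 CPM at day 7, 36.5 ± 3.06 CPM at day 14 and 30.3 ± 0.466 CPM at day 21, so that its low level was seen at day 7 alone among the DMSO days.

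At day 7 the cells given FAKi were at 451 ± 5.84 CPM for *TYR*, 176 ± 66.4 CPM for *PLXNC1*, 79.6 ± 3.78 CPM for *CD36* and 2.33 ± 0.495 CPM for *NRCAM*. These stand beside 311, 89.5, 103 and 8.88 CPM in DMSO, and the differences were not tested here. The mitochondrial share, which was alike at days 0 and 7, differed at the other times: it was 8.61% to 18.1% at DMSO day 3, 21.95% to 26.97% at DMSO day 14 and 5.49% to 9.75% at DMSO day 21. Its part in the levels at those times was not tested.

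**Figure D5:**
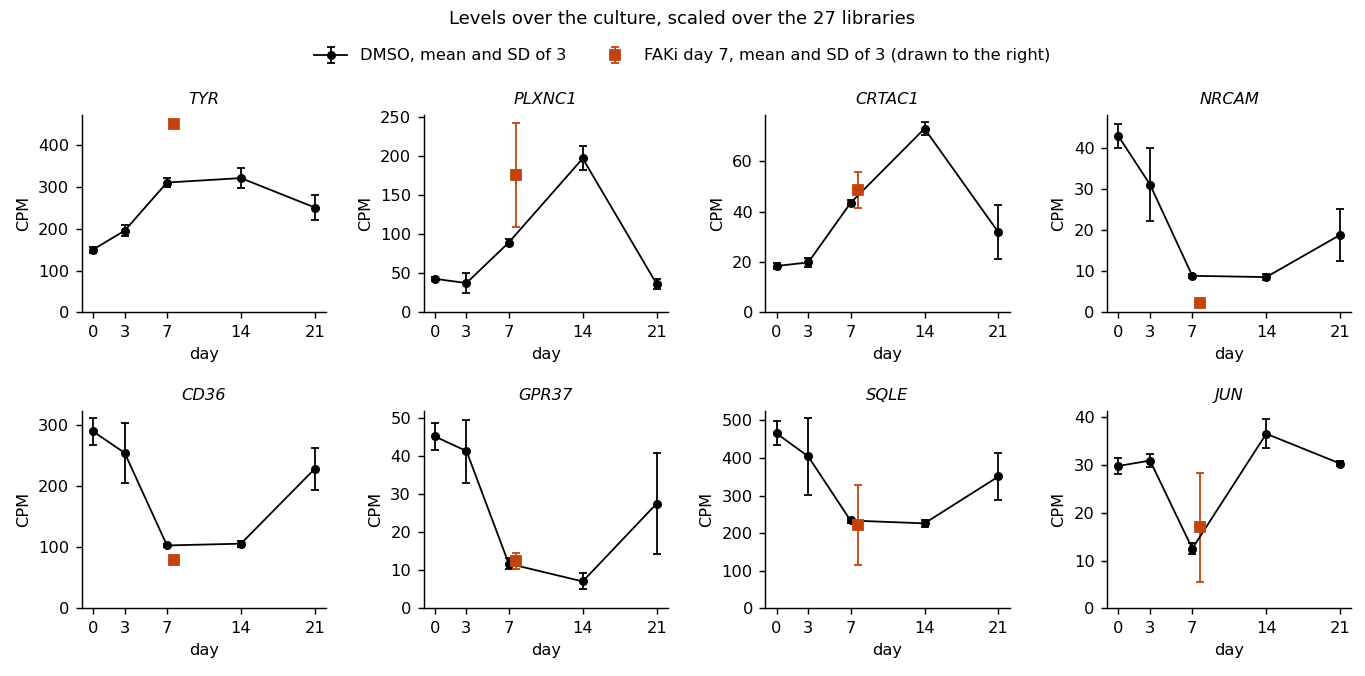
Level of 8 genes (y axis, CPM scaled over the 27 libraries, from 0) in DMSO at days 0, 3, 7, 14 and 21 (x axis, black, mean and SD of 3) and with FAKi at day 7 (orange, mean and SD of 3, drawn to the right of day 7). *CD36* and *NRCAM* are lowest at days 7 and 14 (103 and 106 CPM, 8.88 and 8.58 CPM), and *JUN* is low at day 7 (12.5 CPM) and at 36.5 CPM at day 14.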

How the data were processed

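mRNA of 92.1 cells was sequenced with a TruSeq Stranded mRNA kit in 27 libraries. Per the labels and methods the authors trimmed reads with Trim Galore, checked them with FastQC 0.11.8, aligned them to hg38 with STAR 2.5.3a and counted exons with HOMER against GENCODE 39. The deposited values are raw counts, whole numbers for 61533 genes (19982 protein-coding). Whether counting used the strand, and how reads with several matches were treated, is not given in the sources used here.

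The 6 libraries were tested with edgeR 4.0.16 in R 4.3.3 (TMM, quasi-likelihood F test), on genes that reached 20 counts in total. The p-values were adjusted by the Benjamini-Hochberg method over 21900 genes, and calls also needed a log2 fold change beyond 1. The authors used DESeq2 with the same limits, and DESeq2 1.42.0 was run as an alternative. CPM were computed on TMM-scaled totals, and the totals before scaling were 12161994 to 31262413 counts. Counting intervals are exact at 95% and cover counting error only. Exon overlaps used GENCODE 44.

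The genes named were taken from the 10 called in each direction with the largest change, at least 5 CPM and no overlap between days, the 5 in each direction with the smallest p, up to 3 called members of each of 36 lists (else its most expressed members, until 2 were named), *PTK2*, *GNAQ* and the cell type markers. List members that passed the adjusted p and the genes of the promoter windows were added after their values were seen. The lists and the comparison were chosen with earlier results of these data known. Some genes the rule names are not reported here.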

Additional observations from a re-analysis of the deposited data

How the results depend on the processing

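The called genes kept their direction under every one of the 20 alternatives in which they could be tested, and the number called was within 1.5 times of 113 under other scalings (113 and 115), no count filter (120), filterByExpr (106), DESeq2 (89), thinning to the smallest total (93), an adjusted p of at most 0.01 (80), no mitochondrial genes (113) and edgeR's newer quasi-likelihood method (115, added after seeing the data). Requiring at least 10 counts in every library gave 75 calls (16 higher), with 39 of the 113 not tested. With all 27 libraries in 1 fit there were 29 calls (11 higher, 18 lower), and with the 15 DMSO libraries 20 (9 higher, 11 lower), and every one was also called with 6 libraries. These fits share 1 estimate of the spread with the other groups, and the cause was not tested. The adjusted p alone gave 911 (440 higher, 471 lower). Leaving out 1 library gave 79 to 109 calls, 22 to 28 higher and 57 to 83 lower, the lowest without DMSO day 0 replicate 2.

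Same-numbered libraries of the days did not deviate together in every pair (r = 0.169, -0.0102 and 0.134 over 16779 genes), and libraries 1 and 3 correlated best with their own number. With the replicate number as a block 119 genes were called (27 higher, 92 lower), the 113 among them.

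Of the 29 named genes called, 16 lost the call in at least 1 alternative, 41 of 568 pairs of gene and alternative in all and 0 with another sign. Most were in the fits of 15 or 27 libraries, where *CCN2*, *SEMA3A*, *L1CAM*, *POSTN*, *SPP1*, *VCAN*, *CDH2*, *CYSLTR2*, *MUC5B* and *MUC7* lost it in both. Of 699 list medians 11 moved by more than 1 SD. Depth limits genes under 1 CPM, where 15 of the calls lie.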

Other observations

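Outside the named lists, and chosen after the values were seen, several called genes encode regulators and signalling molecules. The POU factors of the neural crest moved apart: *POU3F2*, known in melanoma as BRN2, fell from 6.38 to 3.08 CPM on average (log2 fold change -1.05 ± 0.16), and *POU3F1* rose from 8.54 to 17.3 CPM (1.02 ± 0.12). *FOXC1*, a factor of the anterior eye and neural crest, fell from 2.55 to 0.960 CPM (-1.38), and *DACH1*, a factor of eye development, fell from 1.43 to 0.273 CPM (-2.34). Among receptors, *ALK* fell from 7.48 to 3.24 CPM (-1.17), *BMPR1B*, a BMP receptor, from 5.17 to 2.38 CPM (-1.13) and *S1PR3*, a receptor of sphingosine 1-phosphate, from 3.45 to 1.51 CPM (-1.22). Among ligands, *TSLP*, an epithelial cytokine, fell from 27.02 to 11.4 CPM (-1.24 ± 0.11, edgeR adjusted p = 2.77e-09), and *NRG1*, a ligand of the ERBB receptors, rose from 2.10 to 4.56 CPM (1.08). *KIF1A*, the motor that carries synaptic vesicle precursors, fell from 29.0 to 13.8 CPM (-1.07 ± 0.09).

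Of 4256 long noncoding RNAs tested 28 were called, a share near that of genes of every kind (153 of 21900, 0.699%). Among these 28, 17 were higher, beside 26 of the 113 called protein-coding genes. *EWSAT1* rose from 2.92 ± 0.724 to 7.78 ± 0.469 CPM (SD, n = 3 and 3), a log2 fold change of 1.38 ± 0.17 (edgeR adjusted p = 6.38e-07). Over 20% of the exon bases of 7 of the 113 called protein-coding genes belong to another gene on the same strand, and those of 1 on the opposite strand.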
